A study of Mus musculus with 4 samples.

Results

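Hepcidin and 7 further genes of iron uptake, export, transport and storage, with the hepcidin paralogue Hamp2, were followed in heart RNA of ICR mice. The 9 genes were taken by symbol (Hamp, Hamp2, Hfe, Trf, Tfrc, Slc11a2, Slc40a1, Fth1 and Ftl1) from the 19505 named genes of the value table, and each had 1 probe set. They were chosen with their readings on all 4 arrays known, so those readings are described here and not tested. At postnatal day 1 the mice received either a viral vector carrying Tbx6, a T-box transcription factor of the early mesoderm, or phosphate-buffered saline (PBS), injected under the skin of the back per the growth protocol, while other fields speak of introduction into the heart. Hearts were collected 7 or 30 days later. Each of the 4 groups (PBS and Tbx6 at day 7, PBS and Tbx6 at day 30) is 1 array. The control carried no vector, and the type of vector, the promoter in it, the number of hearts behind each array and the animals' sex are unknown here. In whole heart RNA, fewer cells of a type and less RNA per cell cannot be told apart.

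Hepcidin is the peptide hormone that lowers iron export. It binds ferroportin, the only known cellular iron exporter and the product of Slc40a1, and drives its breakdown. The liver is its main source, and heart muscle also makes it. Cells take up iron carried by transferrin (Trf) through the transferrin receptor (Tfrc), move it out of the endosome with the divalent metal transporter DMT1 (Slc11a2) and store it in ferritin, built of heavy (Fth1) and light (Ftl1) chains. Hamp transcription is driven by BMP and SMAD signalling, with hemojuvelin (Hjv) as the BMP co-receptor and HFE as a modifier, and by interleukin 6 through STAT3.

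Hamp and Hamp2 lie near each other on chromosome 7 and their promoters are close copies, so both are shown first. The 250 bases before each start come from RefSeq on GRCm38.p6, at chr7:30944030-30944279 for Hamp and chr7:30924182-30924431 for Hamp2, both on the minus strand. Capitals mark the GGCGCC core known as the BMP-responsive element of Hamp, with the bases aligned to it in Hamp2, and the STAT-type motif TTCTTGGAA.
Hamp: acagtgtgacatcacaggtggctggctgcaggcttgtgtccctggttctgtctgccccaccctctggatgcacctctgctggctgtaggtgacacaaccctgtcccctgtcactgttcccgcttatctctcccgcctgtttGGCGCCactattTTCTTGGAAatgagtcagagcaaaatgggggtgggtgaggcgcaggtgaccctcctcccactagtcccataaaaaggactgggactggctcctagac
Hamp2: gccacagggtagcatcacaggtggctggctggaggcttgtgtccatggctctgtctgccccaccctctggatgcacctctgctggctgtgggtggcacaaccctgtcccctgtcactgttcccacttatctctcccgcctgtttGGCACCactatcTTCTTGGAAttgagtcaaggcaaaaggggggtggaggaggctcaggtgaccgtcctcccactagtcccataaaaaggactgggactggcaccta
In a global alignment 227 of 253 columns (89.7%) were identical. GGCGCC began 109 bases before the start of Hamp, and the aligned bases of Hamp2 carry the single change G4A, counted from 1 at the first base of the element in Hamp. TTCTTGGAA had 0 differences and began 97 bases before the start in Hamp and 94 in Hamp2.

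Motifs were searched on both strands. The stretches in capitals do not overlap in either window, and the Hamp2 window holds no match to GGCGCC. Of the 32851 RefSeq windows of this length, 9.59% hold GGCGCC, 7.02% hold the looser TTCNNNGAA and 0.37% hold TTCTTGGAA. Windows were at hand for 6 of the 9 genes, 8 windows in all. Beside Hamp, GGCGCC occurs in 1 of the 2 Tfrc windows, 89 bases before that start, at chr16:32608795-32608824 on the plus strand (capitals mark it).
Tfrc: acctgccgccttGGCGCCttttctaggcta
A match is a string of letters and not a measured binding site.

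The values are log2 expression values, and a reading at or below the highest of the 23 background probe sets of its array (5.77 to 6.05) is called at background. All 10 cardiomyocyte markers were above background on every array, with a summed level of 22.49 to 22.57 on the log2 scale. Several of them, such as Actc1 (19.70) and Pln (19.83), sat near the ceiling of 19.93 with the same reading on all 4 arrays, so this shows heart muscle RNA but not that its share was constant. Of 7 airway markers, Scgb1a1 and Scgb3a1 read 12.89 and 10.80 on the PBS array of day 7 and were at background on the other 3 arrays. Cyp2f2 was also highest there (8.17), Sftpc, Sftpb and Sftpa1 were at background throughout, and Cbr2 was low on the Tbx6 array of day 7 instead (7.43, against 11.73 to 12.33). Among 8 fat cell markers Ucp1 was highest on the PBS array of day 7 (11.92, against 5.69 to 8.34), Cidea on the Tbx6 array of day 7 (8.98), and Adipoq (9.83) and Cidec (7.88) on the Tbx6 array of day 30, while Fabp4 read 16.46 to 17.10. For the 9 genes, each difference that uses the PBS array of day 7 is therefore given beside one that does not. The day changes of the wider iron pathway, given later, are fitted on all 4 arrays and include it. With 1 array per group, differences between single arrays carry no error and no test. Their size is read against the share of all 9753 genes past the expression filter that differed by at least 1.5-fold.

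Hamp, the hepcidin gene, read 11.11 with PBS and 13.08 with Tbx6 at day 7, and 13.15 with PBS and 13.30 with Tbx6 at day 30. The PBS array of day 7 was the low one, and the other 3 lay within 1.5-fold of each other. The difference between injections was 1.97 on the log2 scale at day 7, or 3.92-fold, which 0.082% of all genes exceeded. At day 30 it was 0.15, or 1.11-fold. The change from day 7 to day 30 was 2.04 after PBS and 0.22 after Tbx6, where the latter does not use the low array. The difference between injections was smaller by 1.82 at day 30 than at day 7, and 0.954% of genes had a larger gap in either direction. No error can be put on this gap.

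Hamp2, the hepcidin paralogue, was higher on each later array and on each Tbx6 array. It read 9.34 with PBS and 10.05 with Tbx6 at day 7, and 10.91 and 11.88 at day 30. Unlike Hamp, it was higher after Tbx6 by at least 1.5-fold at both ages, by 0.71 at day 7 and by 0.96 at day 30. The change between days was 1.57 after PBS and 1.82 after Tbx6, so the later hearts were higher with and without the PBS array of day 7. In all, 0.748% of genes were at least 1.5-fold higher after Tbx6 on both days. Hamp and Hamp2 are paralogues whose probes could share signal; transcript and probe sequences were not compared, so this was not tested.

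Hepatocyte markers were measured beside the hepcidin genes, since liver is the main source of hepcidin. Of 11 such markers 9 were at background on all 4 arrays, among them Alb (3.61 to 4.61), Apoa1 (2.84 to 3.21) and Ttr (3.72 to 3.99), and the 2 others were Ahsg and Cyp2e1. Ahsg, for the plasma protein fetuin-A, was at background with PBS at day 7 (5.75) and read 6.77, 7.21 and 6.99 on the other arrays, so its lowest reading, like that of Hamp, was PBS at day 7. Its difference between injections at day 7 was at least 0.98, and the part of such RNA in the Hamp readings was not tested. The summed level of the list was 7.75 and 7.93 at day 7 and 8.98 and 9.33 at day 30. Cyp2e1 was at background at day 7 and read 7.74 and 8.49 at day 30. Atrial markers were all above background (9 of 9), with a summed level of 20.25 to 20.77. Of these, Clu and Sln rose with day, by 2.39 and 0.87, and Myl7 fell by 0.78 (limma adjusted p of 0.000843, 0.0307 and 0.0455). Usf2, the gene next to Hamp on the chromosome, read 9.87 on both arrays of day 7 and 9.33 and 9.38 at day 30.

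**Figure D1:**
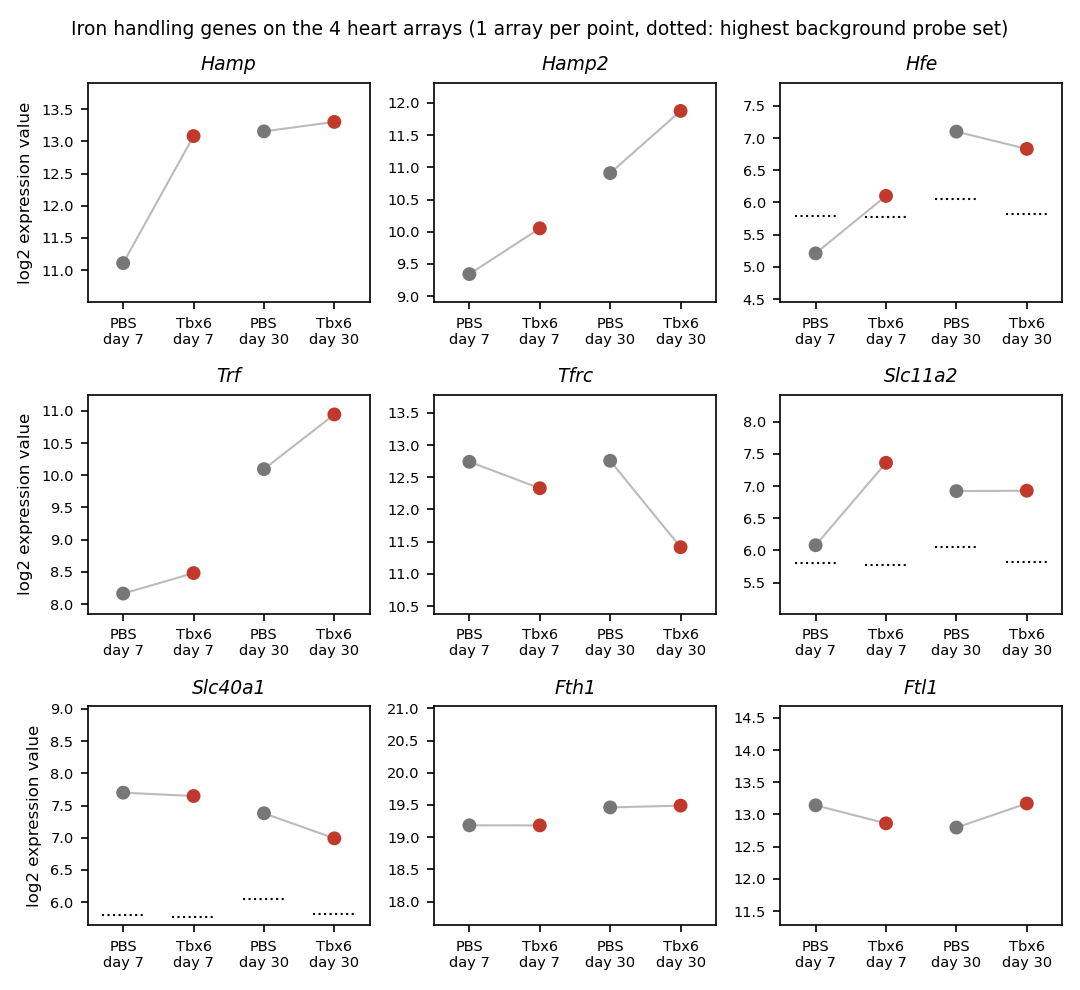
Each panel plots 1 gene as log2 expression value (vertical axis, the same span of 3.4 units in every panel, not starting at 0) on the 4 arrays, grey for PBS and red for Tbx6, with a grey line joining the arrays of 1 day and dotted bars at the highest background probe set where it falls in the span. Hamp stands low in 1 place, PBS at day 7 (11.11 against 13.08 to 13.30), Hamp2 and Trf are higher at day 30, and Tfrc is lowest on the Tbx6 array of day 30 (11.41).

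Hfe, which encodes the membrane protein that adjusts hepcidin to body iron, was the only one of the 9 genes with a reading at background. It was at background after PBS at day 7 (5.21) and read 6.10 after Tbx6 at day 7, 7.10 after PBS at day 30 and 6.83 after Tbx6 at day 30. The difference between injections at day 7 was at least 0.30, and at day 30 it was -0.27. The later arrays were both above the earlier ones, by at least 1.30 after PBS and by 0.73 after Tbx6. The other 8 genes were above background on all 4 arrays.

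Trf, which encodes the plasma iron carrier transferrin, had the widest range of the 9 genes. It read 8.16 with PBS and 8.48 with Tbx6 at day 7, and 10.10 and 10.94 at day 30. The later readings exceeded the earlier ones by 1.93 after PBS (3.82-fold) and by 2.46 after Tbx6 (5.52-fold). The latter change, which leaves out the PBS array of day 7, was exceeded by 1.52% of genes. Between injections Trf differed by 0.32 at day 7 and by 0.85 (1.80-fold) at day 30, higher after Tbx6 each time. Myelin glia also make transferrin, and all 5 measured markers of that list were at background on all 4 arrays.

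Tfrc, the receptor that brings transferrin into the cell, went the other way between injections. It read 12.74 with PBS and 12.33 with Tbx6 at day 7, and 12.76 with PBS and 11.41 with Tbx6 at day 30. The Tbx6 array of day 30 was the low one, 0.92 below the next. The difference between injections was -0.41 at day 7 and -1.34 at day 30, 2.54-fold lower, and 0.236% of genes had a lower difference at day 30. Across days Tfrc differed by 0.02 after PBS, a sign that turned to -0.06 after quantile normalisation, and by -0.92 after Tbx6.

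Tfrc is known as a gene of dividing and of red cell precursor cells, and markers of both were read on the same arrays. The summed level of the 9 measured proliferation markers was 11.62 and 11.72 at day 7 and 7.74 and 8.05 at day 30. All 5 that passed the filter fell by the limma day test described below, as did 12.1% of all genes. Among them Ccna2, Ube2c and Plk1 were at background on both arrays of day 30. They passed the filter, which is set on the mean of the arrays, only through their day 7 readings, so nothing is read from this count. Of the 6 measured erythroid markers 4 (Epb42, Klf1, Epor and Rhag) were at background on every array. The erythroid sum, mostly from Alas2, was 12.58 with PBS and 10.96 with Tbx6 at day 7, and 9.70 and 10.02 at day 30. Above background on all arrays were Alas2, whose readings are given with the haem genes, and Slc4a1, the red cell anion exchanger gene. Slc4a1 read 7.73 and 7.97 at day 7, 7.53 with PBS at day 30 and 6.54 with Tbx6 at day 30, so like Tfrc it was lowest on the Tbx6 array of day 30. Of the 6 fat cell markers past the filter, 4 were at least 1.5-fold higher after Tbx6 at day 30, as were 7.13% of all genes. Among these, Ucp1 and Cidec were at background with PBS at day 30. At day 7, 3 of the 6 were at least 1.5-fold lower after Tbx6, as were 8.41% of all genes. The part of dividing cells, red cell precursors or fat cells in the Tfrc difference was not tested.

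Slc11a2, the DMT1 transporter, was low after PBS at day 7 like Hamp, but highest after Tbx6 at day 7. It read 6.08 with PBS and 7.36 with Tbx6 at day 7, and 6.92 and 6.93 at day 30. The difference between injections was 1.28 (2.43-fold) at day 7, which 0.482% of genes exceeded, and 0.01 at day 30, with its sign turned after quantile normalisation (-0.02). Days differed by 0.84 after PBS and by -0.43 after Tbx6, so no common direction over age was read. The reading of 6.08 lay close above the background limit of its array, 5.80.

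Slc40a1, which encodes the exporter ferroportin that hepcidin acts on, had a range of 0.71 over the 4 arrays, and 41.8% of genes had a smaller one. It read 7.70 with PBS and 7.65 with Tbx6 at day 7, and 7.38 and 6.99 at day 30. Both later arrays were lower, by 0.32 after PBS and by 0.66 after Tbx6, and the injections differed by -0.05 at day 7 and -0.39 at day 30. Macrophages that recycle iron are rich in ferroportin. The macrophage marker sum went from 10.93 and 11.16 at day 7 to 12.63 and 12.89 at day 30. By the limma day test described below, 7 of the 8 markers past the filter rose, as did 14.2% of all genes. The highest marker was Mrc1 (10.05 and 10.49, then 11.72 and 11.90). Vsig4 and Spic were at background on all 4 arrays, and Timd4 on all but the Tbx6 array of day 30 (5.825). The sum was thus higher and Slc40a1 lower on the later arrays, and the part of iron-recycling macrophages was not tested.

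The ferritin genes were the steadiest. Fth1, the heavy chain that oxidises and stores iron, read 19.18 on both arrays of day 7 and 19.46 and 19.49 at day 30. The highest value in the table is 19.93, so Fth1 sits near the ceiling and its differences may be compressed. Its change between days was 0.28 after PBS and 0.31 after Tbx6, and these became 0.00 and 0.22 after quantile normalisation. Ftl1, the light chain, read 13.14 with PBS and 12.86 with Tbx6 at day 7, and 12.80 and 13.17 at day 30, with no order by day or injection. Pseudogenes of both ferritin chains are listed in the RefSeq gene table, so shared signal is possible in both and was not tested.

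Between injections at day 7, 4 of the 9 genes (Hamp, Hamp2, Hfe and Slc11a2) were at least 1.5-fold higher after Tbx6 on the deposited values and 0 were lower. Over all genes 7.23% were higher and 8.41% lower by that rule, and Hfe came under it once its background reading was raised to the limit. At day 30 there were 2 higher (Hamp2 and Trf) and 1 lower (Tfrc), against 7.13% and 6.06% of all genes. The medians over the 9 genes were 0.32 at day 7 and 0.03 at day 30, and over all genes -0.02 and 0.01. These readings chose the genes, so the counts describe them and nothing further is read from them. On both days Hamp, Hamp2, Trf and Slc11a2 were higher after Tbx6, of which Slc11a2 at day 30 only by the 0.01 given above, and Tfrc and Slc40a1 were lower. Among all genes 24.0% were higher and 25.2% lower on both days at any size.

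**Figure D2:**
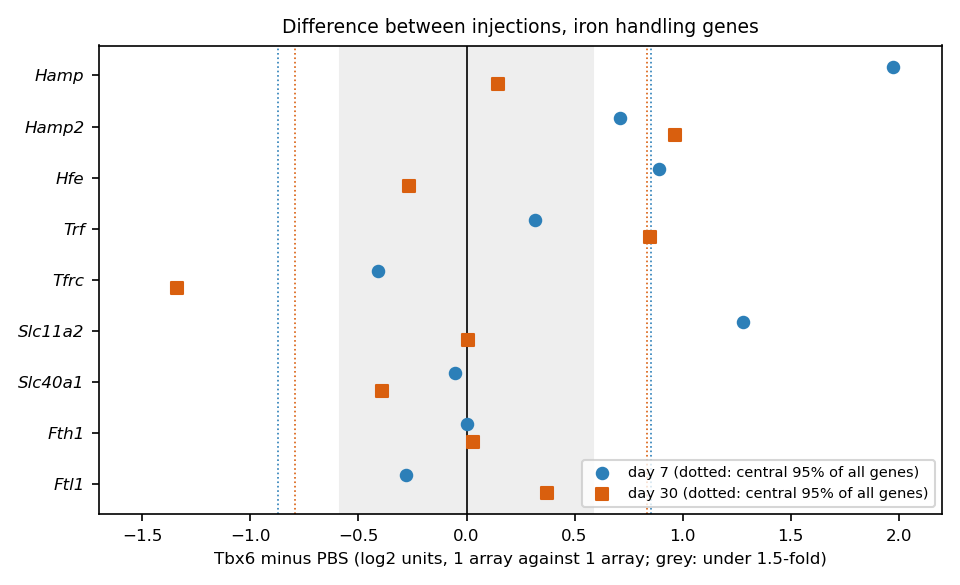
Log2 difference Tbx6 minus PBS (horizontal axis, 1 array against 1 array) for the 9 genes, with circles for day 7, squares for day 30, a grey band for under 1.5-fold and dotted lines at the ends of the central 95% of all genes of that day (-0.87 to 0.85 at day 7 and -0.80 to 0.83 at day 30). Hamp (1.97) and Slc11a2 (1.28) lie to the right at day 7 alone, Tfrc (-1.34) to the left at day 30, and Hamp2 lies outside the band on both days. The Hfe circle is the deposited difference, of which 0.30 is left as a bound.

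Across days, 5 of the 9 genes (Hamp, Hamp2, Hfe, Trf and Fth1) were higher on both day 30 arrays than on both day 7 arrays, 1 (Slc40a1) was lower and 3 overlapped. Among all genes 32.7% were higher and 33.5% lower without overlap. After both injections Hamp2, Trf and Hfe were at least 1.5-fold higher at day 30, as were 14.7% of all genes. After PBS 5 of the 9 genes were at least 1.5-fold higher and 0 lower, where the background is 21.9% and 21.5% (43.4% in either direction). After Tbx6 3 were higher and 2 (Tfrc and Slc40a1) lower, where it is 22.9% and 21.2% (44.1%). The after-PBS comparison shares its day 7 array with the day 7 comparison of injections, so the low Hamp, Slc11a2 and Hfe readings of that array enter both.

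**Figure D3:**
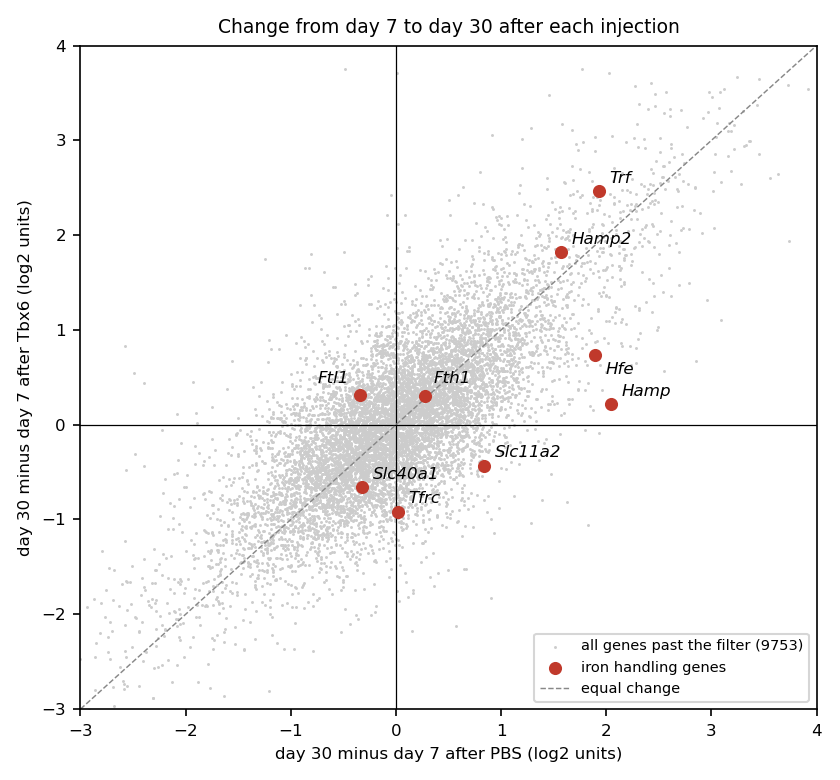
Log2 change from day 7 to day 30 after PBS (horizontal axis) and after Tbx6 (vertical axis), with the 9 genes in red, the 9753 genes past the filter in grey and a dashed line of equal change; 102 genes lie outside the plotted span. Trf and Hamp2 lie close to the line at the upper right, while Hamp (2.04 and 0.22) and Slc11a2 (0.84 and -0.43) lie well below it.

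The wider iron pathway was examined in 5 lists of 103 genes, of which 97 were named on the array and 76 passed the filter. Days were tested here with limma's additive model of day and injection. In it 26.3% of all 9753 genes passed the adjusted threshold of 0.05 for day, 14.2% higher and 12.1% lower at day 30. The lists, like the 9 genes, were chosen with earlier results of these data known, so the shares called only describe them. Of the 76 genes 16 rose and 9 fell, 32.9% in all. For injection the model called 0.0% of all genes and 0 in these lists, with 421 genes (4.32%) at an unadjusted p under 0.05. It also called 0 after quantile normalisation or median centring, with the other filters and with an intensity trend. The remaining alternatives hold no injection term. The model has 1 residual degree of freedom, so its standard errors (SE) lean on the spread of other genes, and age cannot be told apart from anything else that differed between the days. Of the 25 called genes 13 kept an adjusted p below 0.05 in a limma fit with day as the only term and each array left out in turn.

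Of 18 hepcidin control genes 2 rose, 3 fell and 13 did not pass the test, and the 27.8% called are near the 26.3% of all genes. Their median day change was 0.04, against -0.02 over all genes. Hjv, which encodes hemojuvelin, read 12.08 with PBS and 12.94 with Tbx6 at day 7, and 14.08 and 14.47 at day 30. It rose by 1.77 (SE 0.25, limma adjusted p = 0.00175) and, like Hamp2, was higher on each later array and after Tbx6 on each day (0.86 and 0.39). Smad1 and Smad5, the SMADs that carry BMP signals to the nucleus, fell by 1.46 (SE 0.27) and 1.25 (SE 0.25), from 9.98 and 9.63 to 8.20 and 8.49 for Smad1. The BMP receptor gene Bmpr1a fell by 1.08 (limma adjusted p = 0.0211). That call was lost without the PBS array of day 7 (0.089), the Tbx6 array of day 7 (0.0628) or the Tbx6 array of day 30 (0.184, each a limma adjusted p). Il6st, the shared receptor chain of interleukin 6, rose by 0.92 (limma adjusted p = 0.0313), a call lost after quantile normalisation (0.0558), without the filter (0.0586) and, at 0.0553 to 0.148, without any 1 array but that of Tbx6 at day 30. Of the genes for secreted hepcidin inducers, Il6 (2.74 to 3.23) and Bmp2 (2.22 to 3.48) were at background on all 4 arrays, while Bmp6 read 8.31 to 9.06 and did not pass the test (limma adjusted p = 0.378).

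Of 11 genes of iron uptake, oxidation and scavenging 4 rose and 4 fell, with a median change of -0.01. The share called was 72.7%, against 26.3% of all genes, and with so few genes nothing is read from it. Heph and Cd163 passed the filter only through the day on which they were above background. Cp, the ferroxidase ceruloplasmin that loads exported iron onto transferrin, rose by 3.13 (SE 0.25, limma adjusted p = 0.000113), from 8.21 and 7.87 to 11.17 and 11.16. Heph, the membrane ferroxidase hephaestin, fell by at least 1.20, with 7.00 and 7.26 at day 7 and background at day 30. Slc39a14, a zinc transporter that also carries non-transferrin iron, rose by 1.76 (SE 0.30), from 9.18 after PBS and 10.15 after Tbx6 to 11.45 and 11.41. Cd163, the haemoglobin scavenger receptor of macrophages, rose by at least 1.49 from background on both day 7 arrays, together with the macrophage markers above. Slc22a17, a receptor for the siderophore carrier lipocalin 2, fell by 1.54 (SE 0.25). The weaker calls were Lcn2, for lipocalin 2 itself, which rose, and Slc39a8 and Steap4, which fell. In fits with day as the only term, Lcn2 and Slc39a8 were lost without the Tbx6 array of day 7 and without either array of day 30 (limma adjusted p of 0.057 to 0.196). Steap4 was lost in that fit with all 4 arrays (limma adjusted p = 0.0888).

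Of the metal reductase genes, Cybrd1 read 6.08 with PBS and 6.96 with Tbx6 at day 7, and 6.09 and 6.38 at day 30. Steap4 read 9.73 and 10.57 at day 7 and 9.21 and 9.44 at day 30. Both were higher after Tbx6 on each day, Cybrd1 by 0.88 and 0.29 and Steap4 by 0.83 and 0.23, and neither passed the injection test (limma adjusted p of 1).

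In the list of intracellular iron control 1 gene rose, 0 fell and 8 of 9 did not pass the test, with a median of -0.06. The share called was 11.1%, against 26.3% of all genes, and with so few genes nothing is read from it. The call was Sqstm1, an autophagy receptor, which rose by 0.91 (limma adjusted p = 0.0255), lost without the PBS array of day 7 (0.0513), the PBS array of day 30 (0.0723) or the Tbx6 array of day 30 (0.0929). The iron regulatory proteins that bind Tfrc and ferritin mRNAs are encoded by Aco1 and Ireb2. Aco1 read 9.68 to 10.12 and Ireb2 10.45 to 11.01 over the 4 arrays. Ncoa4, the receptor that delivers ferritin to autophagy, read 12.81 with PBS and 12.49 with Tbx6 at day 7, and 13.03 and 12.23 at day 30. Like Tfrc it was lower after Tbx6 on both days, by 0.32 and 0.80.

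Haem genes were called in 6 of 18 cases (33.3%, against 26.3% of all genes), 4 rising and 2 falling, with a median of 0.18. Alas1, the housekeeping first enzyme of haem synthesis, rose by 1.81 (SE 0.25, limma adjusted p = 0.00139), while Alas2, its erythroid counterpart, fell by 2.09 (SE 0.47, limma adjusted p = 0.0136). Alas2 read 12.52 with PBS and 10.73 with Tbx6 at day 7, and 9.24 and 9.82 at day 30, and its call was lost without the PBS (limma adjusted p = 0.111) or the Tbx6 array (0.0588) of day 30. Hmox2, the constitutive haem oxygenase, rose by 1.28 (SE 0.25), and Hmox1, the inducible one, fell by 1.05 (SE 0.24). The Hmox1 call was lost without the PBS (limma adjusted p = 0.0521) or the Tbx6 array (0.0642) of day 30. The haem transporter gene Slc48a1 rose by 1.34 (SE 0.25), lost without the PBS array of day 30 (limma adjusted p = 0.0551). Between injections the haem exporter gene Flvcr1 was lower after Tbx6 by 0.74 at day 7 and 0.41 at day 30, and the biliverdin reductase gene Blvra by 0.29 and 0.68.

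Of 20 mitochondrial iron and iron-sulphur cluster genes 5 rose, 0 fell and 15 did not pass the test. The share called, 5 of 20, is near the 26.3% of all genes, and the direction of the list was not tested. Their median change was 0.41, against -0.02 over all genes. Isca1 and Isca2, which help build the larger clusters, rose by 1.49 (SE 0.25) and 1.43 (SE 0.26), and Nfs1, the cysteine desulphurase that supplies sulphur, by 1.25 (SE 0.25). Ciao1, of cytosolic cluster assembly, rose by 1.51 (SE 0.25, limma adjusted p = 0.00371), with 7.38 and 7.98 at day 7 and 8.68 and 9.70 at day 30. That call was lost without the PBS array of day 7 (limma adjusted p = 0.0687) or the Tbx6 array of day 30 (0.107). Without either of these arrays 3 genes of the list were called. Iscu, the cluster scaffold, read 10.90 with PBS and 11.58 with Tbx6 at day 7, and 11.65 and 11.90 at day 30, with no call for day or injection.

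**Figure D4:**
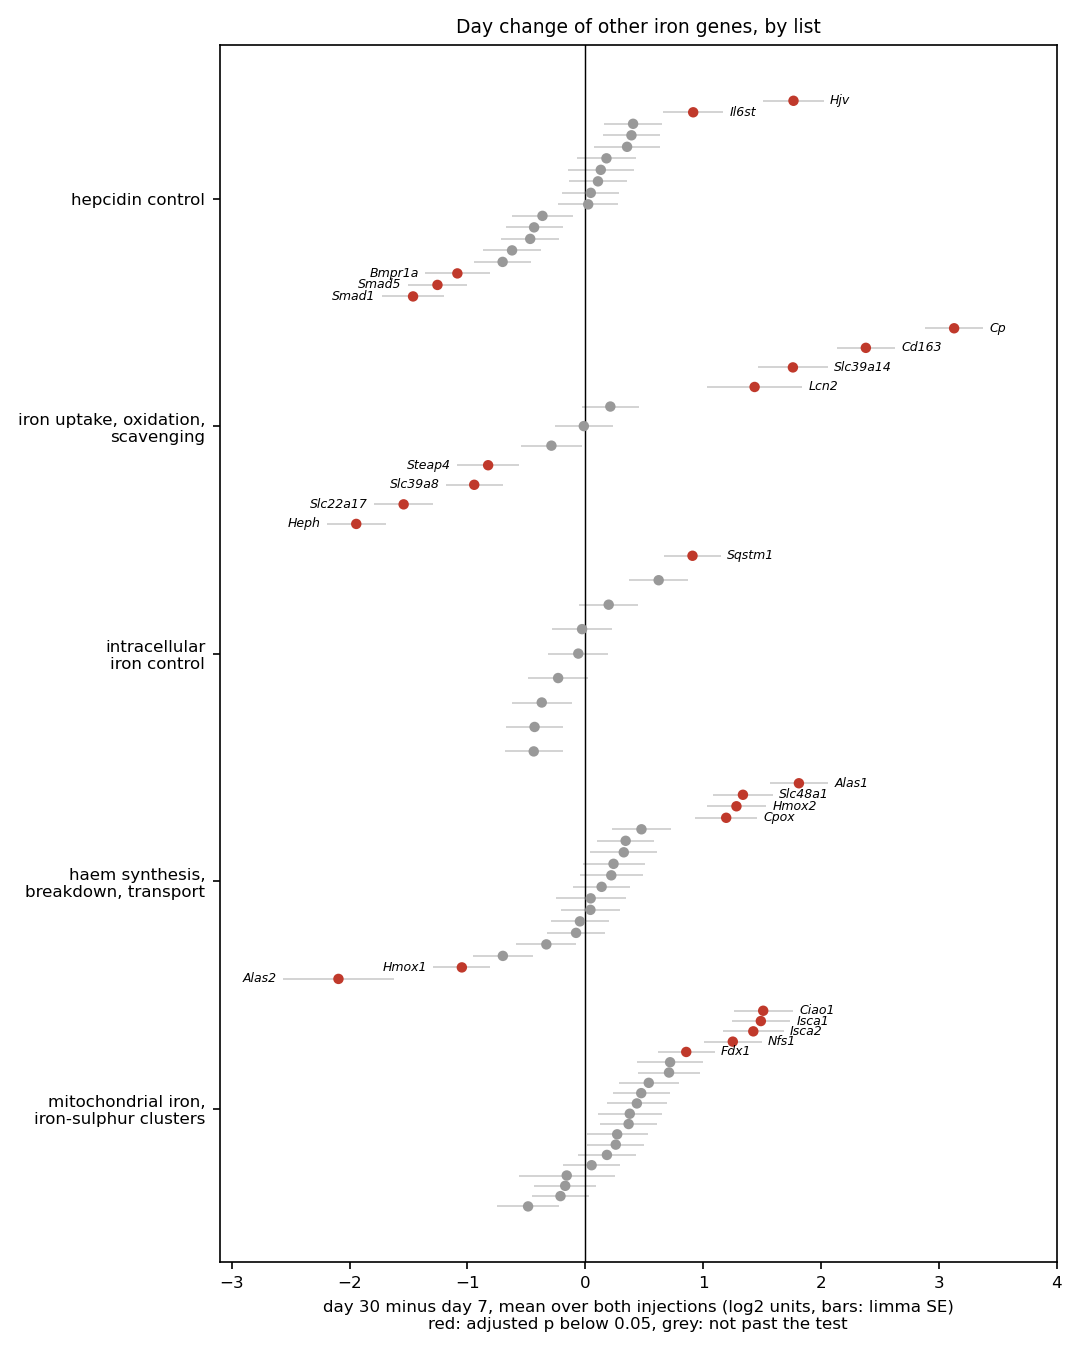
Log2 day change (day 30 minus day 7, mean over both injections, with limma SE as bars) of the 76 genes past the filter in the 5 lists, each point a gene, red where the limma adjusted p is below 0.05. Cp (3.13) is the highest point and Alas2 (-2.09) the lowest, and all 5 red points of the mitochondrial list are above 0.

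The genes whose profile over the 4 arrays lay nearest to that of Hamp were Abcb1a, Usp54, Fas, Apobec3 and Abcb1b. The measure was the root mean square distance of mean-centred log2 values, 0.12 to 0.23 for these 5. Abcb1a, an efflux pump gene, read 7.98 on the PBS array of day 7 and 9.91 to 10.04 on the others. The other 4 were at background on at least 1 array each. Among the iron genes Hfe was the nearest to Hamp (0.42, place 41 of the genes past the filter), while Hamp2 was at 0.60 and place 401. Nearest to Tfrc were Mmgt2, Btbd10, Exoc5, Cacng7 and Rnf217, at 0.05 to 0.11. Exoc5, an exocyst subunit gene, was above background throughout and read 9.14, 8.68 and 9.04 on the first 3 arrays and 7.90 on the Tbx6 array of day 30, where Tfrc was also low. With 4 arrays, many genes share any such profile.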

How the data were processed

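Per the labels' protocols, heart RNA was labelled with biotin and hybridised to 1-colour mouse Clariom S arrays; the submitters' processing notes name SST-RMA and Expression Console 1.4 for the deposited values. The deposited values are taken as log2 values: the base and any centring are not stated, and base 2 was inferred from their range. Column medians were 5.34, 5.35, 5.27 and 5.23 (PBS and Tbx6 at day 7, then at day 30). Of 28846 probe sets 19572 had 1 symbol and 0 had several in the platform annotation. For 55 genes with more than 1 probe set the highest mean was kept.

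Genes with a mean at or above the median (5.30) passed the filter. The additive model used limma 3.58.1 (lmFit, eBayes, two-sided, Benjamini-Hochberg over 9753 genes) in R 4.3.3. Its day term was tested on simulated data of 9753 genes, of which 100 were changed by 1 and 100 by 2 log2 units. It recovered 9% and 93% of these, with 9 unchanged genes called. Far fewer genes changed there than the 26.3% called in the data, so these recovery rates do not carry over to the data. A bound raises background readings to the highest background probe set. The number of arrays limits the precision. With 1 array per group, the residual of the additive model is the gap between the injection differences of the 2 days, pooled with that of other genes. Its p-values are measured against that gap and not against a spread between replicate hearts. Sequences were aligned with Biopython 1.88.

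The members and lists were chosen with earlier results of these data known. Named genes were the 9 members, per list up to 4 genes with the largest called day change and up to 2 with a repeated injection difference, and the 5 profiles nearest to Hamp and to Tfrc. Il6st, Il6, Bmp2, Bmp6, Aco1, Ireb2, Hmox1, Slc22a17, Usf2 and Slc25a37 were added after their values were seen. Lcn2 and Slc39a8, also outside the rule, were named because they were called. Alternatives were quantile normalisation, median centring, other filters, an intensity trend, day as the only term, leaving out each array, and the mean of a gene's probe sets.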

Additional observations from a re-analysis of the deposited data

Results flagged for a closer look

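Slc25a37, which encodes mitoferrin 1, the mitochondrial iron importer of red cell precursors, differed between injections in opposite directions on the 2 days, with each difference at least 1.5-fold and no reading at background. It read 8.37 with PBS and 7.33 with Tbx6 at day 7, a log2 difference of -1.04, and 7.26 and 8.12 at day 30, a difference of 0.86. Day 30 minus day 7 was accordingly -1.11 after PBS and 0.79 after Tbx6. Whether the differences differ was not tested, since each group is 1 array. The erythroid marker sum on the same arrays was 12.58, 10.96, 9.70 and 10.02, mostly from 1 gene, Alas2 (12.52, 10.73, 9.24 and 9.82). Slc4a1, the only other marker above background, went the other way between injections on both days (7.73, 7.97, 7.53 and 6.54). The part of red cell precursors in the Slc25a37 result was not tested.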

How the results depend on the processing

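Of 108 recomputed differences of the 9 genes (quantile normalisation, median centring, mean of a gene's probe sets, which changes nothing for genes with 1 probe set), 107 moved by less than the gene's limma residual SD and 0 past 1.5-fold changed sign; the exception was the Fth1 change after PBS. Without the filter, genes past 1.5-fold numbered 3101 (Tbx6 against PBS at day 7), 2918 (at day 30) and 6590 (days after Tbx6), against 1525, 1286 and 4301, since more genes were counted. The day term called 2562 genes and 1248 to 2067 when each array was left out in turn, with 1402 without the PBS and 1248 without the Tbx6 array of day 30. In the lists, hepcidin control genes rising numbered 1 in place of 2 after quantile normalisation and 1 without the filter, and with each array left out in turn (chosen after seeing the data) 1 to 2 rose and 2 to 3 fell. Likewise 3 to 4 uptake genes rose and 2 to 4 fell, 0 to 1 genes of intracellular control rose, 3 to 4 haem genes rose and 0 to 2 fell, and 3 to 7 mitochondrial genes rose. The fits without an array also lack the injection term, so fewer arrays and the changed model cannot be told apart. The cause of these moves was not tested. No paired analysis was possible because each group holds 1 array.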
